A study of Mus musculus with 122 samples.

Results

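The genes described here encode the cohesin ring and the proteins that load it, hold it and release it: Rad21, Smc1a, Smc3, Stag1, Stag2, Nipbl, Mau2, Wapl, Pds5a and Pds5b. They were chosen by name, and all 10 were found among the 52459 genes listed in the RNA-seq table. Each was above the mean of 10 normalized counts that a gene needed to be tested, in every line. The cells were mouse E14Tg2a embryonic stem cells grown without feeders in medium with serum, LIF and the 2 inhibitors of 2i, as 1 growth protocol gives for every sample. The RNA-seq column names carry "2i" for the LCL and CLC libraries alone, and whether the CTCF and CTCFL libraries differed in medium is not stated. In every group both alleles of Ctcf carried an auxin-inducible degron with eGFP, Tir1 was expressed from Rosa26, and a doxycycline-inducible transgene with FLAG and mRuby2 tags sat at Tigre. The transgene was CTCF, its testis paralog CTCFL, LCL (CTCFL termini around the CTCF zinc fingers) or CLC (CTCF termini around the CTCFL zinc fingers), and 2 further fusions, CLL and LLC, entered FLAG ChIP-seq here. Cells were left untreated (U), given 500 µM auxin to degrade endogenous CTCF (I), given 1 µg/ml doxycycline to induce the transgene (D), or given both (ID). Further ID cells of the CTCF and CTCFL lines entered FLAG ChIP-seq after RNase A on permeabilized cells or after a mock treatment. RNA-seq covered 38 libraries of 4 lines and 4 conditions with 2 or 3 libraries in each group. The sample labels give 24 h of treatment for RNA, whereas the treatment protocol gives 2 days. The lines came from picked colonies, and how many clones entered these libraries is not stated, so line, clone and library batch cannot be told apart. Nothing in the labels says that the replicates were separate cultures, so p-values measure the spread between these libraries, which may be technical.

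Cohesin is a ring of SMC1A, SMC3 and the kleisin RAD21, to which STAG1 or STAG2 binds. NIPBL and MAU2 form the loader, which also drives extrusion of DNA loops, whereas WAPL with PDS5A or PDS5B takes the ring off chromatin. In mammalian cells extruding cohesin is halted at bound CTCF.

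The libraries held 6847072 to 49716768 reads recovered from the normalized values. The 8 pluripotency markers were high in every group, with group means between 4027 (Sox2) and 53676 normalized counts (Nanog), while the 4 mesoderm markers summed to between 193 and 500 over all libraries and the 4 trophectoderm markers to between 2097 and 5677. The 4 neural markers summed to between 2296 and 8420, and the 3 fibroblast markers to between 225 and 2158. In D versus U of the CTCFL line 3 of 3 neural markers tested were lower, beside 18.6%. The trophectoderm sum was 2097 to 2280 in U and 5642 to 5677 in ID of the LCL line, with Tfap2c the highest of that list and Elf5 at a highest group mean of 5.3. The germ cell markers summed to 9247 to 9793 in U, 17032 to 17914 in D and 27166 to 28121 in ID of the CTCFL line. In D versus U 2 of these 4 genes were higher, beside 17.6% of all genes tested, and 1 was lower, beside 18.6%. In ID versus U 3 of the 4 were higher, beside 28.9%. In the LCL and CLC lines 1 of the 4 was higher in ID than in U, beside 25.2% and 16.5%. There 2 and 3 of the 4 were lower, beside 25.3% and 16.2%. In the CTCF line 2 were higher, beside 27.0%, and 0 lower. The summed level of the pluripotency markers was 166946 to 170773 normalized counts in untreated CTCF cells and 97895 to 98956 in ID, with 7 of 8 lower beside 26.2% of all genes tested. For CTCFL cells it was 146742 to 155718 in U and 71004 to 73153 in ID, with 8 of 8 lower beside 27.4%, and 99977 to 102507 in D, with 6 of 8 lower beside 18.6%. It was 209951 to 213017 and 188217 to 196233 in the LCL line, and 246657 to 248406 and 216245 to 225833 in the CLC line, with 3 of 8 lower in each beside 25.3% and 16.2%. Of the primitive endoderm markers, 3 of 5 were higher in ID than in U in the LCL line, where 25.2% of all genes tested were higher, and 3 of 4 tested in the CLC line (16.5%). In the CTCFL line 3 of 5 were lower in ID than in U (27.4%) and 3 of 5 in D than in U (18.6%), with 0 higher. In the CTCF line 1 was higher and 1 lower in ID than in U (27.0% and 26.2%). Their sum was 2991 to 5005 over the CTCF and CTCFL libraries and 388 to 958 over the LCL and CLC libraries. Auxin acts on the CTCF protein, so Ctcf RNA does not check the depletion. Ctcfl RNA followed the transgene, at 208 ± 16 (SD, n = 3) in untreated CTCFL cells and 8244 ± 1005 (n = 3) with doxycycline. In the CTCF line Ctcf RNA was not higher with doxycycline, at 4701 ± 15 (n = 2) in U and 3748 ± 172 (n = 3) in D. In bulk RNA, fewer cells of a type and less RNA per cell cannot be told apart.

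The FLAG-tagged transgenes were found at the promoters of 6 of the 10 genes: Smc3, Stag1, Stag2, Nipbl, Pds5a and Pds5b. A site was a region with a peak in both replicates, and it counted for a gene when its middle lay within 3 kb of an annotated start site of that gene. The sequences at the 6 sites of the CTCF transgene in auxin-treated cells are shown because the promoter results turn on them. They run for 120 bases 5′ to 3′ on the gene's own strand in GRCm38, and capitals mark the match to the CTCF core consensus of 14 positions with at most 2 mismatches, searched on both strands in the 300 bases around the summit.
Smc3 (chr19:53599855-53599974, + strand): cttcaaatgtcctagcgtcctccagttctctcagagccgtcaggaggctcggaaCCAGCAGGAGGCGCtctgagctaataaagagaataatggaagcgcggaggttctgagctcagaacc
Stag1 (chr9:100643519-100643638, + strand): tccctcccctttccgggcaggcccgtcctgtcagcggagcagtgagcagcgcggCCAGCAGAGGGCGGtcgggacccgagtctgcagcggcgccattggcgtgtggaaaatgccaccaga
Stag2 (chrX:42149015-42149134, + strand): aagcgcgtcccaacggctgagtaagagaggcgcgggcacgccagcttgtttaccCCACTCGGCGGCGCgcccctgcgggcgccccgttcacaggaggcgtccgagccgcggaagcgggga
Nipbl (chr15:8445500-8445619, - strand): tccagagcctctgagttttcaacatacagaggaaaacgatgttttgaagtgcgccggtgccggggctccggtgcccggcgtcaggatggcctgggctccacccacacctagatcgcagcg
Pds5a (chr5:65696798-65696917, - strand): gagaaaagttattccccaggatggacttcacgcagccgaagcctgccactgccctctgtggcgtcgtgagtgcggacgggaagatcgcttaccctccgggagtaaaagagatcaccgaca
Pds5b (chr5:150673639-150673758, + strand): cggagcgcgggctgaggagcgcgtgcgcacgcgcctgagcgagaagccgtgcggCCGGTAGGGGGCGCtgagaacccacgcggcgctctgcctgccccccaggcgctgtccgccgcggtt
The sites of Smc3, Stag1, Stag2 and Pds5b held a match, in all 4 on the strand of the gene, with 1 mismatch for Smc3, Stag1 and Pds5b and 2 for Stag2. Nipbl and Pds5a held none, with a best match of 3 and 4 mismatches, and are shown around the summit instead. Counted in bases from the nearest annotated start site, negative before it, the match lay at -39 in Pds5b, -20 in Stag1, -241 in Stag2 and -482 in Smc3. The start site of Stag1 was that of a transcript beginning inside the gene. Over all windows of the same length, 77.6% of the 30317 sites of this group and 7.77% of 32851 RefSeq promoters of GRCm38.p6 held the motif, so a match at a bound site is the common case. A match is a description of the letters and not a measured contact. Among the RefSeq promoters, 7 of the 10 genes were matched by symbol, and only the windows of Stag1 and Pds5b held the motif. The Stag1 window, chr9:100643198-100643497, ended before the bound match shown above and held a different one, with 2 mismatches.

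With doxycycline alone, 6 of the 10 genes had a CTCF site, against 21.6% of the 46402 genes of the RNA table that could be placed. That background holds many genes too low to be tested, since 16705 passed the filter in the CTCF line. The 10 genes had 1 to 14 annotated start sites, each with its own window. The shares below are therefore an unlike background, and enrichment at these promoters was not tested. The same 6 genes had one for CTCF with auxin (background 17.2%), for CTCFL without auxin (21.4%) and with it (20.7%), and for LCL without auxin (21.0%) and with it (26.6%). CLC was found only at Pds5b without auxin (5.24%) and at 5 of the 10 genes with auxin (13.9%), Pds5a being the one of the 6 without a site. Rad21, Smc1a, Mau2 and Wapl had a site in none of the 16 FLAG groups, although Wapl had a peak in 1 replicate of CTCF D, CLC ID and LCL ID and Smc1a in 1 replicate of CTCFL D. Of the 8 groups labelled 24 h the CLC libraries in D gave the fewest sites in all, 7599 against 17876 in ID, so a missing site there was not detectable at that peak number.

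Peak strength differed among the 6 genes, with overlap between some of them. At Pds5b the CTCF ID peaks reached a -log10 q of 124 and 125 in the 2 replicates, with 15.4-fold and 18.5-fold enrichment over control. Stag2 followed with 77.7 and 58.9, and Stag1 with 72.7 and 64.5. At Smc3 the values were 54.03 and 28.6. Nipbl, whose site lay at -1077 bases from its single annotated start, had 28.3 and 15.9. Pds5a was weakest at 11.9 and 5.13, over a start site of a shorter transcript inside the gene. The 2 replicates of Pds5b were above both of every other gene in this group, whereas Stag1 and Stag2 overlapped. In CTCFL ID the order differed at the top, with Pds5b at 60.8 and 43.97 and Smc3 at 53.5 and 40.3, which overlapped. In CTCF D Pds5b, at 52.4 and 35.7, overlapped Smc3 at 45.2 and 48.4 and Stag1 at 35.6 and 40.2.

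**Figure D1:**
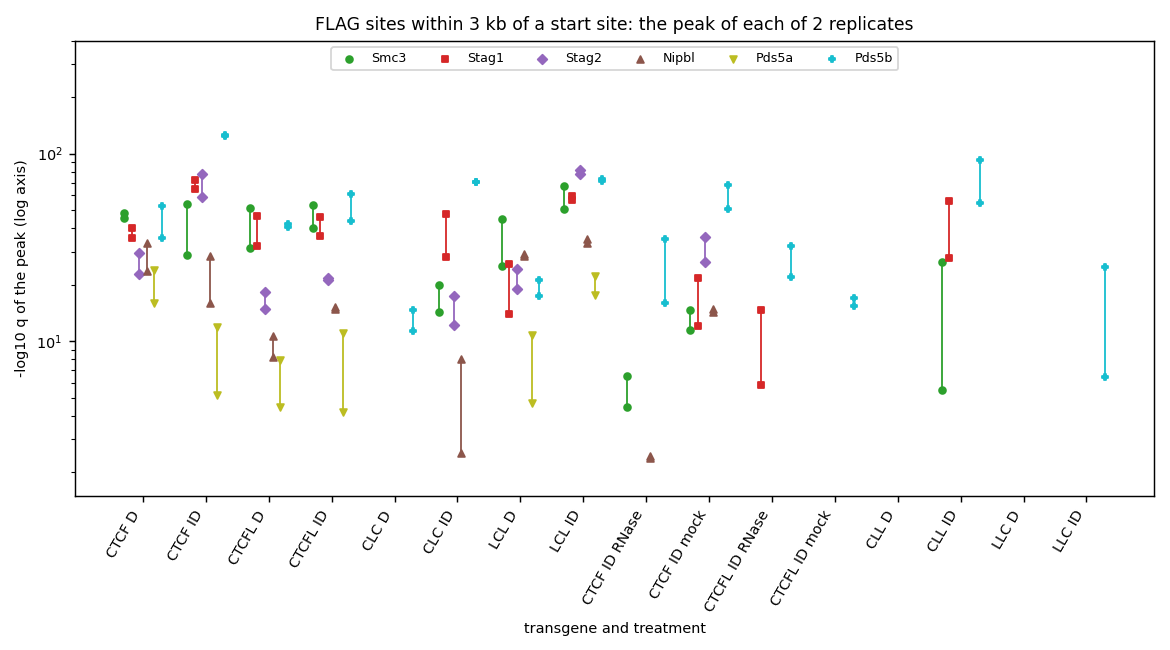
FLAG sites within 3 kb of a start site of the cohesin genes. The y axis is the -log10 q of the peak on a log axis, each point is 1 of 2 replicates joined by a line, and the x axis gives the transgene and treatment. Pds5b sits highest in CTCF ID, at 124 and 125, and is the one gene with a site in CLC D, at 11.4 and 14.6. Rad21, Smc1a, Mau2 and Wapl have no site and are not drawn.

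The remaining FLAG libraries were labelled 48 h and are given apart from the 24 h libraries. In CTCF ID cells 5 of the 10 genes had a site after mock treatment (background 12.4%) and 3 after RNase (6.06%). In CTCFL ID cells 1 gene had a site after mock treatment (4.28%) and 2 after RNase (3.07%). Pds5b was in all 4 of these lists, with RNase peaks of CTCF at 34.9 and 15.9 against mock peaks at 50.9 and 67.6. For CTCFL the RNase peaks at Pds5b were higher, at 31.99 and 21.9 against mock peaks at 17.0 and 15.4. The CLL fusion had sites at Smc3, Stag1 and Pds5b with auxin (10.2%) and at none without it (0.748%). LLC had a site at Pds5b with auxin (3.15%) and at none without it (1.07%). A replicate of unequal size set some of these counts, since the first CLL D replicate held 2233 peaks and the second 14985, and 3 genes had a peak in the second alone.

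RAD21, itself a member, had no site shared by both replicates at any of the 10 promoters in any of the 8 groups. The share over all genes was as low: 1.92% with CTCF without auxin and 0.295% with it, 0.155% with CTCFL without auxin and 0.101% with it, 0.203% in CLC D, 0.134% in CLC ID, 0.972% in LCL D and 0.101% in LCL ID. The replicates were very unequal, at 20467 and 238 peaks in CTCFL D for example, which limits a rule that asks for both. Neither CTCFL D replicate alone had a peak at these promoters, however, and nor did any ID replicate. Whether a weaker promoter signal was present was not tested. In single replicates, 6 promoters had a peak in the second CLC D replicate, 4 in the second LCL D replicate and 2 in the first CTCF D replicate, all with a -log10 q between 1.43 and 3.61.

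In untreated cells the levels ran in a broad order, here as normalized counts per kb of merged exons. Rad21 had the highest mean in every line, although in the CTCFL line Rad21 at 1858 ± 60 and Smc3 at 1820 ± 93 per kb (SD, n = 3) did not differ beyond their spread. Mau2 had the lowest mean in every line, although in the LCL line Mau2 at 174.8 ± 8.4 and Stag2 at 176.8 ± 43 per kb (SD, n = 2) did not differ beyond their spread. In the CTCF line Rad21 stood at 2388 ± 6.0 per kb (SD, n = 2), Smc3 at 1884 ± 50, Wapl at 1362 ± 45 and Smc1a at 1164 ± 32, whereas Nipbl, Stag1, Stag2, Pds5a and Pds5b lay between 253 (Pds5b) and 447 (Nipbl) and Mau2 at 138 ± 7.0. Stag1 was above Stag2 in that line, at 395 ± 19 against 356 ± 2.5. The untreated lines differed from each other. Stag2 was at 2931 and 2960 normalized counts in the CTCF line and 2898, 2852 and 3096 in the CTCFL line, but at 1714 and 1211 in the LCL line and 1492 and 1603 in the CLC line. Those pairs of lines did not overlap. Rad21 was higher in the LCL and CLC lines, at 14047 to 17762, than in the CTCF and CTCFL lines, at 7677 to 10125. These differences are given as levels with no test.

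**Figure D2:**
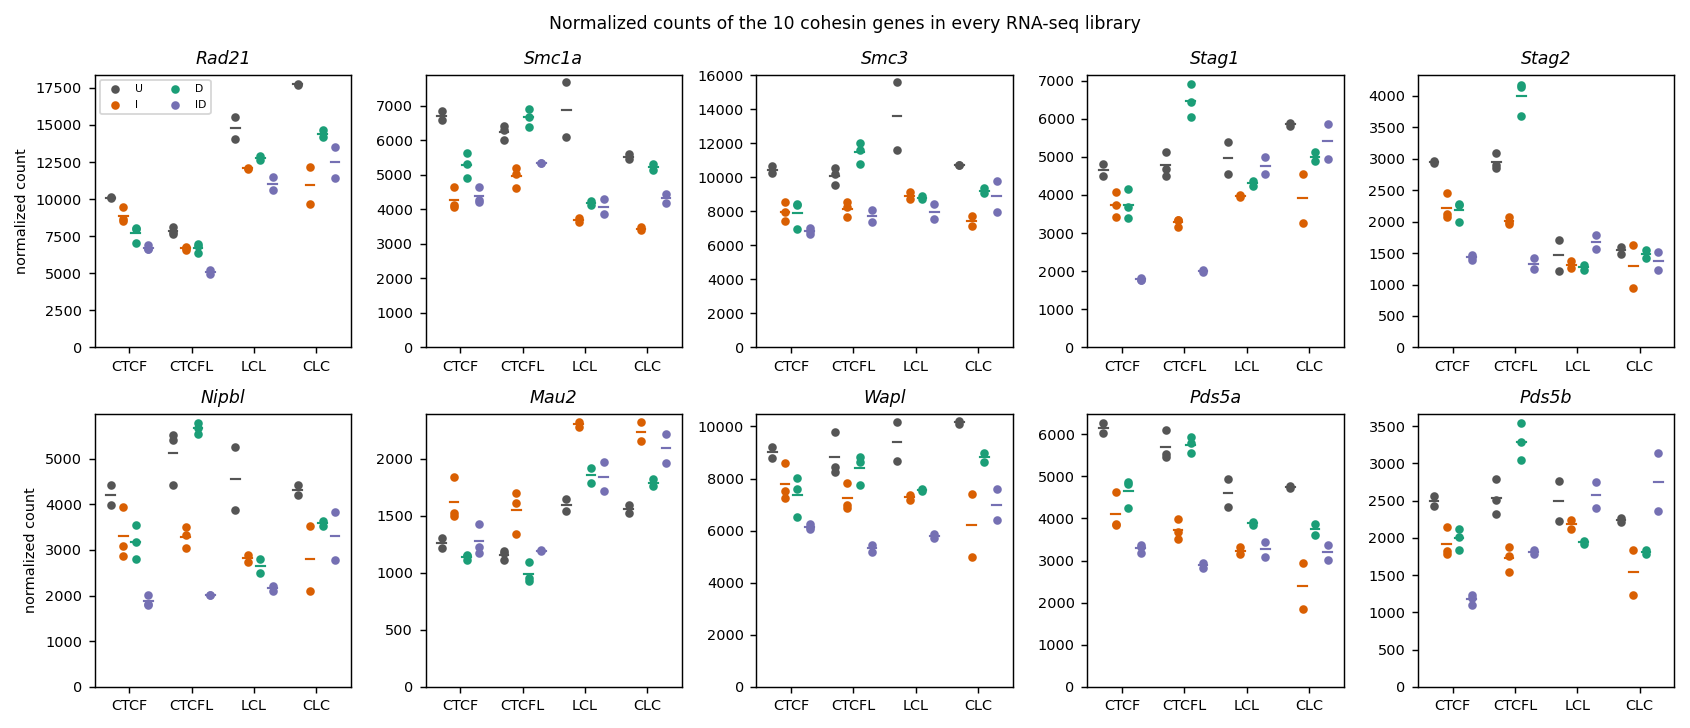
Normalized counts of the 10 cohesin genes in every RNA-seq library. The y axis starts at 0, points are libraries, short bars are group means, and colours mark untreated (U), auxin (I), doxycycline (D) and both (ID). Stag1, Nipbl and Pds5b are lowest in the ID libraries of the CTCF line, and Stag1 is highest in the D libraries of the CTCFL line.

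Of the 10 genes, 8 were among the longest or the poorest in GC, and the median change over all genes ran with both properties. Nipbl, Pds5a, Pds5b, Stag1, Stag2 and Mau2 were in the longest quintile (1 of 5 equal groups) of tested genes by exon length, and Nipbl, Pds5a, Pds5b, Stag1, Stag2, Smc3 and Wapl in the quintile of lowest exon GC, whereas Rad21 and Smc1a were in neither. In the CTCF and CTCFL lines every gene but Mau2 was also in the highest quintile by level, the mean normalized count in the line. The share over all genes is therefore an unlike background for these 10. For ID versus U in the CTCF line, the median change of all genes went from 0.40 in the shortest quintile to -0.46 in the longest, and from -0.31 in the lowest GC quintile to 0.40 in the highest. The same medians by length were 0.37 and -0.46 in the CTCFL line, in the LCL line 0.29 and -0.38 and in the CLC line 0.16 and -0.17. The tests were therefore repeated after these trends were removed from every library, over length alone, over GC alone, and over length and then GC, all 3 added after the data were seen. Below, "trends removed" means both, and the single corrections are given where a count, a call or a direction differed. Many of all genes tested also passed with trends removed. Their number is given for some comparisons, and the counts have to be read beside it. What share of any change came with length or GC was not tested beyond that.

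**Figure D3:**
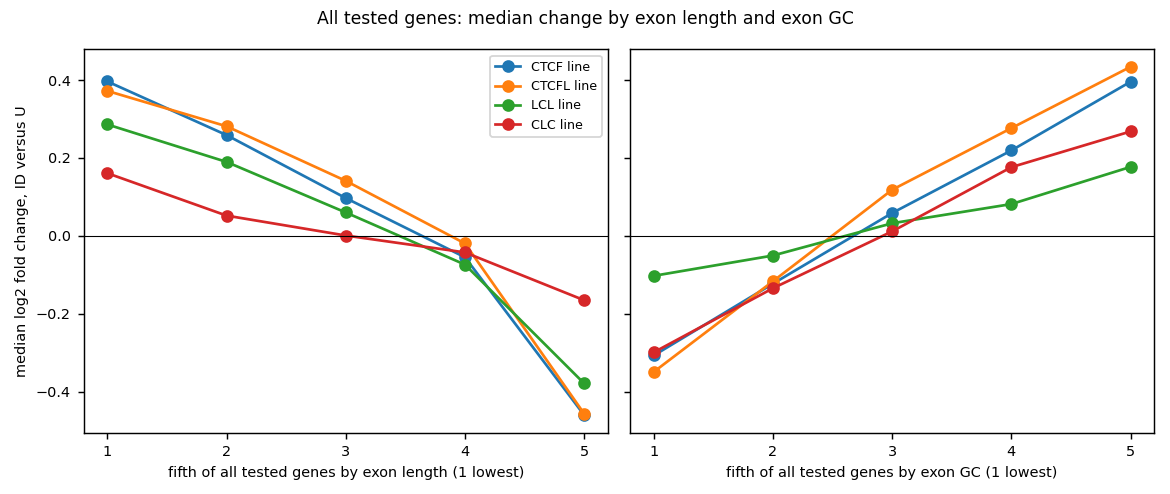
Median log2 fold change of all tested genes, ID versus U, by quintile of exon length and of exon GC, with 1 line for each cell line. Longer and GC-poor genes were lower: the CTCF line falls from 0.40 to -0.46 along exon length and rises from -0.31 to 0.40 along GC.

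In the CTCF line the comparisons concern depletion of CTCF and its replacement by the tagged protein. Auxin alone lowered 7 of the 10 genes at an adjusted p under 0.05 (21.8% of all tested genes were lower) and raised Mau2 (22.3% were higher). Doxycycline alone lowered 9 (10.4%, and 22.2% of the highest quintile by level). Auxin with doxycycline lowered 9 (26.2%), and 4 of them, Stag1, Stag2, Nipbl and Pds5b, passed the study's thresholds of an adjusted p under 0.01 and a log2 change above 1 (14.9% in either direction). In that comparison 59.4% of the longest quintile and 34.4% of the highest by level were lower. Relative to auxin alone, doxycycline lowered 9 (22.2%), of which Stag1 passed the study's thresholds (5.06%). The median of the 10 genes was -0.37, -0.37, -0.76 and -0.37 on the log2 scale in these comparisons, beside 0.03, -0.02, 0.06 and -0.02 over all genes. Removing both trends left this median at -0.03, -0.12, -0.41 and -0.28. With the trends removed, the genes lower in both analyses were 2, 3, 8 and 6, and 1, 0, 2 and 1 genes were higher. With auxin alone 4 of the 10 genes were then past the test in either direction, as were 7634 of 16256 genes tested. With doxycycline alone 3 of the 10 were, as were 2483 of all genes tested. With length alone removed 5, 4, 8 and 6 genes were lower, and with GC alone 4, 4, 9 and 7. None passed the study's thresholds under any of the 3 corrections. The D versus U count rested on single libraries of both groups, since it was 5 without D replicate 1 or D replicate 3. It fell furthest without U replicate 2 and also fell without U replicate 1, each of which left 1 library in U.

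In the CTCFL line auxin alone lowered 9 genes (20.5%) and raised Mau2 (21.3%). Doxycycline alone went the other way for 4 genes, Smc3, Stag1, Stag2 and Pds5b, which rose (17.6%), while Rad21 fell (18.6%). Auxin with doxycycline lowered 9 (27.4%), and Stag1, Stag2 and Nipbl passed the study's thresholds (19.6%). In that comparison 56.4% of the longest quintile and 40.7% of the highest by level were lower. Relative to auxin alone, 7 were lower (22.1%). With the trends removed, 6, 1, 5 and 5 genes stayed lower in the 4 comparisons, and the 4 that rose with doxycycline still rose. Past the test and higher were then 2, 5, 3 and 3 genes. The share over all genes is not given for these counts or the next, so they cannot be read as particular to these genes. With length alone removed 8, 2, 7 and 5 genes were lower, and with GC alone 7, 1, 6 and 6. Past the study's thresholds were then no genes, except Nipbl at -1.01 in ID versus U with GC alone removed, as were 2863 of 16395 genes tested.

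In the LCL line auxin alone lowered 7 genes (19.8%) and raised Mau2 (20.5%). Doxycycline alone lowered 5 (10.7%). Both together lowered 6 (25.3%), of which Nipbl passed the study's thresholds (12.5%). Relative to auxin alone, Nipbl, Mau2 and Wapl fell (22.9%) and Stag1 and Stag2 rose (22.5%). After both trends were removed 5, 4, 5 and 2 genes stayed lower, and 1, 1, 5 and 5 genes were higher. All 10 were then past the test in ID versus U, as were 7501 of 14919 genes tested. With length alone removed 5, 5, 5 and 0 genes were lower, and with GC alone 6, 4, 6 and 3, none past the study's thresholds. The count of genes past the test with auxin alone was 5 without U replicate 1, and 1 gene passed the study's thresholds without U replicate 2. The count for doxycycline was 3 without U replicate 1, D replicate 1 or D replicate 2 and 9 without U replicate 2. That for ID versus I was 1 without either I replicate and 2 without ID replicate 1, and Nipbl was not past the study's thresholds without U replicate 1.

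In the CLC line auxin alone lowered 8 genes (23.1%) and raised Mau2 (20.9%), with Pds5a past the study's thresholds (12.8%). For doxycycline alone none of the 10 was past an adjusted p of 0.05 by limma (5.67% of all genes were lower and 4.82% higher), with 1 at an unadjusted p under 0.05, 0 by edgeR and 0 by DESeq2. Both together lowered Rad21, Smc1a, Wapl and Pds5a (16.2%) and raised Mau2 (16.5%). Relative to auxin alone, Smc1a and Pds5b were higher (10.2%). After removal of both trends 4, 0 and 3 genes stayed lower in the comparisons with U, and 1, 0 and 3 were higher. With auxin alone 5 of the 10 genes were then past the test in either direction, as were 7156 of 14971 genes tested. With length alone removed 6, 0 and 5 genes were lower there, and with GC alone 4, 0 and 2, and Pds5a was not past the study's thresholds under any of the 3 corrections. The auxin libraries of this line stood apart, with Pds5a at 2942 in replicate 1 and 1856 in replicate 2 against 4730 and 4762 in U. The ID versus U count was 0 without U replicate 1, U replicate 2 or ID replicate 1. The ID versus I count was 8 without I replicate 1 and 0 without ID replicate 2, and 1 gene passed the study's thresholds without I replicate 1. The study-threshold count for auxin was 3 without I replicate 1 and 0 without I replicate 2 or either U replicate. In the D versus U comparison 8 genes were past an adjusted p of 0.05 when the 2 groups were fitted alone, and 2 when all 4 lines were fitted together.

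**Figure D4:**
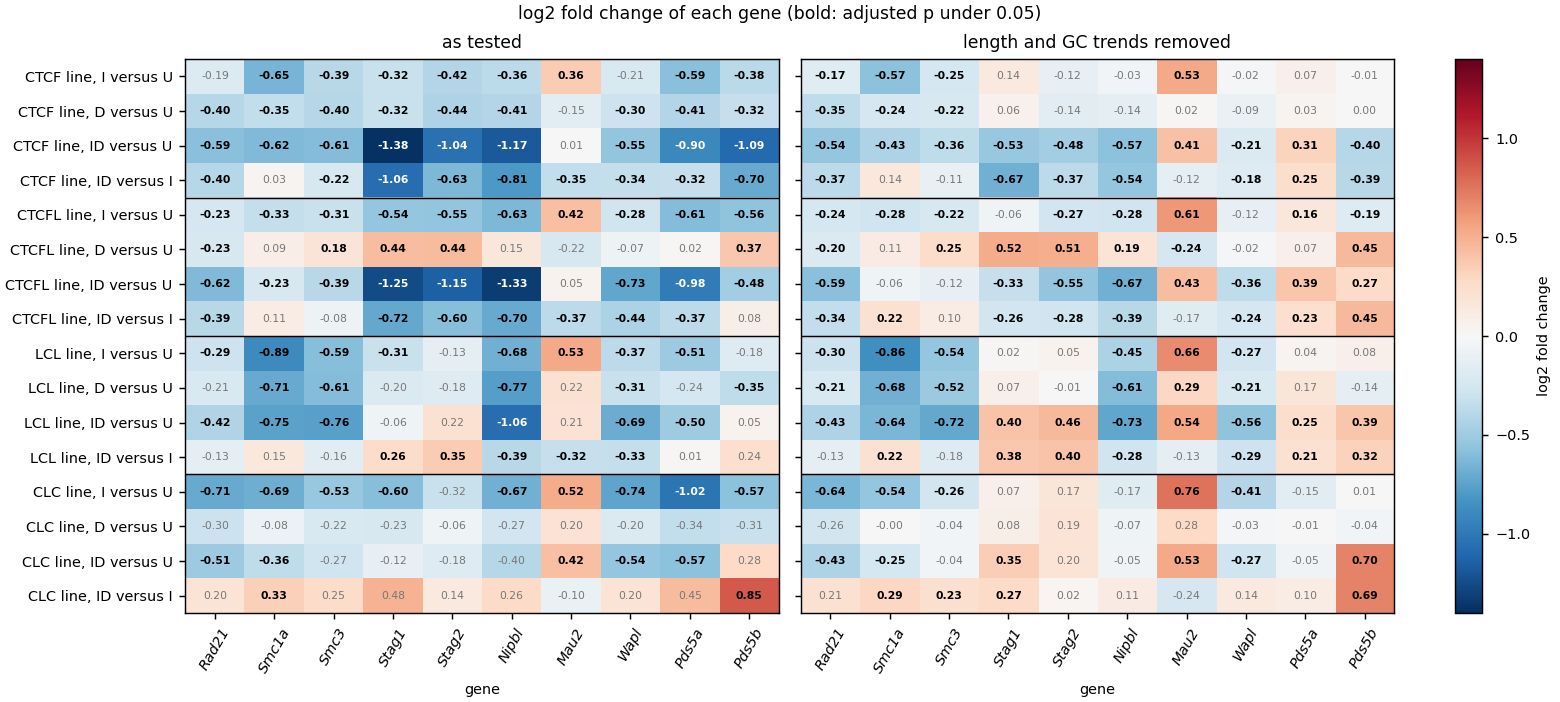
log2 fold change of each cohesin gene in the 16 comparisons, as tested on the left and with the trends over exon length and GC removed on the right. Red is higher and blue lower in the first-named condition, and bold numbers mark an adjusted p under 0.05. Stag1 fell to -1.38 in the CTCF line, ID versus U, and to -0.53 with the trends removed, while Mau2 rose in all 4 lines with auxin alone on both sides.

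Among the ring subunits, Rad21, the kleisin that separase cleaves, was at 10089 and 10125 normalized counts in untreated CTCF cells and at 6672, 6632 and 6895 in ID. The groups did not overlap, and Rad21 fell by 0.59 ± 0.08 on the log2 scale (SE) and by 0.54 with the trends removed. In the CTCFL line it fell by 0.62 ± 0.07, in the LCL line by 0.42 ± 0.09 and in the CLC line by 0.51 ± 0.12 in the same comparison. Rad21 was lower in 11 of the 16 comparisons and higher in none. Without the trends it was lower in all 4 ID versus U comparisons. The CLC call was lost without U replicate 1, U replicate 2 or ID replicate 1.

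Smc1a, an ATPase arm of the ring on the X chromosome, had its largest change in the LCL line with auxin, from 7690 and 6089 in U to 3621 and 3739. It fell by 0.89 ± 0.10, and by 0.86 with the trends removed. Smc3, its partner ATPase, fell by 0.59 ± 0.11 there, from 15585 and 11614 to 8715 and 9116. Both groups were apart from their controls, although the 2 untreated LCL libraries differed by more than the auxin libraries did. Smc3 rose with doxycycline in the CTCFL line by 0.18 ± 0.07, a call lost without U replicate 1 or 2 or D replicate 2 or 3.

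The STAG subunits link the ring to CTCF and DNA. Stag1 was at 4498 and 4808 in untreated CTCF cells, at 4081, 3735 and 3424 with auxin, at 3692, 4157 and 3394 with doxycycline and at 1764, 1782 and 1816 with both. The ID libraries were below all others of the line. Stag1 fell by 1.38 ± 0.09 in ID versus U (adjusted p = 4.6e-08, limma) and by 0.53 with the trends removed, by 0.79 with length alone and by 0.98 with GC alone. Stag1 in the CTCFL line went from 4510, 5138 and 4677 in U to 6051, 6902 and 6427 with doxycycline and 2019 and 1979 with both. It rose by 0.44 ± 0.07 in the first comparison and fell by 1.25 ± 0.08 in the second, with all 3 groups apart. In the same D libraries 6 of 8 pluripotency markers were lower than in U, as given above. Of the 4 germ cell markers 2 were higher and 1 was lower. The part of these markers in the rise of Stag1 was not tested. In the LCL line the ID libraries, at 4988 and 4548, overlapped U at 5382 and 4553. In the CLC line ID, at 4955 and 5873, also overlapped U, at 5810 and 5895.

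Stag2, the X-linked paralog, moved in the same sense. It fell by 1.04 ± 0.09 in the CTCF line, from 2931 and 2960 to 1396, 1468 and 1430, and by 1.15 ± 0.08 in the CTCFL line, to 1417 and 1247. With both trends removed it fell by 0.48 and by 0.55. With doxycycline alone in the CTCFL line it rose by 0.44 ± 0.07, to 3676, 4175 and 4146. In the LCL and CLC lines its ID and U libraries overlapped, with log2 differences of 0.22 and -0.18 that did not pass the test. With the trends removed Stag1 and Stag2 rose in the LCL line by 0.40 and by 0.46, and Stag2 also with length or GC alone, by 0.48 and by 0.33, while Stag1 with GC alone was at 0.07 and did not pass. The pluripotency markers, given above, were also lower in ID in the CTCF and CTCFL lines by more than in the LCL and CLC lines, and their part in these results was not tested.

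Of the loader genes, Nipbl was lower in 12 of the 16 comparisons. It went from 3992 and 4428 to 1819, 2003 and 1786 in the CTCF line, a fall of 1.17 ± 0.13, and from 4414, 5402 and 5528 to 2020 and 2019 in the CTCFL line, a fall of 1.33 ± 0.09. In the LCL line it fell by 1.06 ± 0.11, to 2214 and 2103. These falls with the trends removed were by 0.57, by 0.67 and by 0.73, all past the test. In the CLC line the difference was -0.40 ± 0.22 and did not pass. Mau2, the partner of NIPBL in the loader, went the other way with auxin. It was at 1219 and 1309 in untreated CTCF cells and at 1844, 1527 and 1501 with auxin. It rose by 0.36 ± 0.10, by 0.42 ± 0.09, by 0.53 ± 0.10 and by 0.52 ± 0.09 in the CTCF, CTCFL, LCL and CLC lines, and all 4 rises passed with the trends removed, at 0.53 to 0.76. The CTCF line call was lost without U replicate 1. In ID versus U Mau2 was past the test in the CLC line alone as tested, and in all 4 lines with the trends removed or length alone removed. With GC alone removed it passed in the CLC line alone, with values of -0.03, -0.02 and 0.19 in the CTCF, CTCFL and LCL lines.

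Of the release and regulatory genes, Wapl was lower in 12 of the 16 comparisons and higher in none. It went from 8806 and 9228 to 6055, 6238 and 6152 in the CTCF line, ID versus U, a fall of 0.55 ± 0.09, and it fell by 0.21 with the trends removed. Pds5a, at 19.34 kb of merged exons the longest of the 10, fell by 0.90 ± 0.09 there, from 6039 and 6267 to 3312, 3374 and 3180, but rose by 0.31 with the trends removed. With length alone removed it was at 0.07 and did not pass, and with GC alone it fell by 0.52. In the CTCFL line it fell by 0.98 as tested and by 0.56 with GC alone removed, was at 0.11 with length alone and rose by 0.39 with both. In the LCL line it fell by 0.50 as tested and by 0.38 with GC alone removed, and rose by 0.27 with length alone and by 0.25 with both. Pds5b went from 2427 and 2561 to 1226, 1103 and 1196 in the CTCF line. It fell by 1.09 ± 0.09 and by 0.40 with the trends removed. Pds5b in the CTCFL line fell by 0.48 ± 0.10, to 1843 and 1783, and rose by 0.27 with the trends removed, with values of -0.01 and -0.07 that did not pass with length or GC alone. In the CLC line it was at 2364 and 3143 in ID and at 1838 and 1238 in I, and it rose by 0.85 ± 0.19, a call lost without ID replicate 2.

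The change was then compared between lines, as the change in a line minus that in the CTCF line, over all 38 libraries. These comparisons share the CTCF line, and line, clone, library batch and any difference in medium cannot be told apart. For ID versus U, Stag1, Stag2 and Pds5b differed in the LCL line (31.3% of all tested genes differed) and those genes, with Nipbl and Mau2, in the CLC line (28.7%). Stag1 was 1.32 ± 0.15 and 1.26 ± 0.15 higher in change than in the CTCF line, Stag2 1.26 ± 0.21 and 0.86 ± 0.21, and Pds5b 1.14 ± 0.19 and 1.37 ± 0.19. These 6 differences were kept without any 1 library and under each of the 3 corrections. The Nipbl difference of 0.77 ± 0.23 in the CLC line was lost without CTCF U replicate 2 or CLC ID replicate 2, and that of Mau2 was lost with length alone or both trends removed, at 0.09 and 0.07. Without CTCF U replicate 2, 3 of the 5 CLC differences were left. For ID versus I the same 3 genes differed in the LCL line (34.9%), and in the CLC line 9 of 10 did (34.3%), Mau2 being the exception. Of those 9, Smc1a was lost under each of the 3 corrections, and Pds5a, at 0.55 with GC alone removed, was at -0.11 and -0.18 with length alone or both removed and did not pass. The Smc1a call was also lost when 1 of several libraries was left out. Smc3 was lost without CLC ID replicate 2, Stag2 without CLC I replicate 2, and Wapl without CLC I replicate 2 or CLC ID replicate 2.

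In the CTCFL line, D versus U differed for 7 genes (22.3%), Smc1a, Smc3, Stag1, Stag2, Nipbl, Pds5a and Pds5b, all with a positive sign, led by Stag2 at 0.87 ± 0.19 and Stag1 at 0.75 ± 0.14. With the trends removed 6 of the 7 were kept, Pds5a at 0.06 being the one that was not. With length alone removed Nipbl, at 0.37, and Pds5a, at 0.08, were lost, and with GC alone none was. Nipbl and Pds5a were also lost when 1 of several libraries was left out. ID versus U differed for Smc1a and Pds5b (17.1%), and both calls were lost without CTCF U replicate 2 and that of Pds5b without CTCFL ID replicate 1. ID versus I differed for Pds5b (14.8%), by 0.78 ± 0.17. For auxin alone no gene differed in the CTCFL line (4.10%) or the LCL line (11.7%) by limma, with 1 at an unadjusted p under 0.05 in each, and Rad21 and Wapl differed in the CLC line (14.8%), at -0.52 ± 0.12 and -0.53 ± 0.17. That count was 1 without either CTCF U replicate, CTCF I replicate 1, either CLC U replicate or CLC I replicate 2, and 5 without CLC I replicate 1. For doxycycline alone no gene differed in the LCL line (8.28%) or the CLC line (6.55%) by limma, with 2 at an unadjusted p under 0.05 in each. With auxin in the CTCFL line 1 gene differed without CTCF I replicate 1, in the LCL line with auxin 1 without LCL U replicate 2, and in the LCL line with doxycycline 1 without CTCF D replicate 3 or LCL U replicate 2.

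Genes around cohesin were counted from lists chosen with earlier results known. Over all genes tested, 27.0% rose and 26.2% fell in ID versus U of the CTCF line, 28.9% and 27.4% in the CTCFL line, 25.2% and 25.3% in the LCL line and 16.5% and 16.2% in the CLC line, and the counts of these lists are to be read beside those shares. Of the 6 meiotic cohesin genes, 2 rose and 2 fell in ID versus U of the CTCF line and 5 rose and 1 fell in the CTCFL line, while 1 of 4 tested rose and 2 fell in the LCL line and 1 of 5 rose and 3 fell in the CLC line. Rec8, the meiotic kleisin, rose past the study's thresholds in ID versus U in all 4 lines, by 1.13, 1.64, 1.51 and 1.57 in the CTCF, CTCFL, LCL and CLC lines. Smc1b, the meiotic SMC1, fell by 2.20 with auxin in the CTCF line, from 1732 to 377 normalized counts, and by 3.17 in ID versus U of the LCL line. Stag3, the meiotic STAG, fell by 2.03 in the latter comparison. Sycp2, of the synaptonemal complex, rose by 1.41 in ID versus U of the CTCFL line. Of 14 genes of cohesion establishment and cleavage, 4 rose and 2 fell in ID versus U of the CTCF line, and 6 rose and 5 fell in the CTCFL line. In the LCL line 1 rose and 7 fell, as did 1 and 6 in the CLC line. Hdac8, the SMC3 deacetylase, fell by 1.26 and by 1.35 in ID versus U of the CTCF and CTCFL lines, and in ID versus I of the LCL line Espl1 (separase) fell by 1.02 and Pttg1 (securin) fell by 1.203. Of the condensin and SMC5/6 genes tested, 8 of 16 fell in ID versus U of the CTCF line, as did 7 of 17, 8 of 16 and 5 of 16 in the CTCFL, LCL and CLC lines, and 2 rose in the LCL line. Slf1, an SMC5/6 localisation factor, fell by 1.78 and by 1.38 in the CTCF and CTCFL lines, Nsmce2, an SMC5/6 SUMO ligase, fell by 1.04 in the CTCF line, fell by 1.36 in the CTCFL line and rose by 1.03 in ID versus I of the LCL line, and Ncapg2, a condensin II subunit, fell by 1.12 in the CLC line. Of the 10 genes listed as CTCF partners, which include its paralog Ctcfl, 5, 7, 6 and 1 fell in ID versus U of the CTCF, CTCFL, LCL and CLC lines and 1 rose in each. Adnp, at 87 normalized counts in untreated CTCFL cells and 26 in ID, fell by 1.73. The gene of this list that rose in the CTCFL, LCL and CLC lines was Ctcfl, by 4.73, by 5.17 and by 6.10. Ctcfl reports the induced transgene, so the count of 1 there was set by the design.

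The genes whose level ran closest to each member were found from Pearson's r over the 38 libraries, on log2 values centred on each line, among 12901 genes with a mean of at least 50. The libraries share conditions and the length and GC trends, so r is given as a description. Rad21 was closest to Smc2 (r = 0.964), a condensin subunit, then Zfp638 and Wapl. Stag1 was closest to 2310035C23Rik (0.960), then Srgap2 (0.954) and Stag2 (0.946), while Stag2 was closest to Stag1, then Eps15 and Osbpl8. Nipbl was closest to Jmjd1c (0.962) and Usp34, Pds5a to Celf1 (0.976), Foxn2 and Gpd2, and Pds5b to Vps13d (0.933), Spag9 and Dock5. Smc1a and Smc3 shared Rfc1 as the closest gene, at 0.913 and 0.919, followed by Supt16 and Tcof1 for Smc1a and Tpr and Top2b for Smc3. Wapl was closest to Heatr1 (0.950), Rif1 and Zfp281, and Mau2 to Pknox1 (0.905), Sh3tc1 and B4galt5. Between members the median r was 0.73, and the lowest was -0.67.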

How the data were processed

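RNA-seq was poly(A)-selected, directional and paired-end. The authors aligned reads with STAR and deposited gene counts divided by 1 size factor per library, a signal that is not a raw count. Its steps gave whole reads for 100.0% of values up to 500 reads, within 0.1 of a step. For ChIP-seq the authors aligned with Bowtie2 and called peaks per replicate with MACS (broad for RAD21), and the deposited lists hold a fold enrichment, which is a ratio, and a −log10 q-value per peak. The submitters' processing notes name Trim Galore 0.4.4, SAMtools 1.3, HTSeq and deepTools, with GRCm38. Hi-C domain lists were not used here.

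Values were tested as log2(value + 1), so a fold change understates the change of low genes, with limma 3.58.1 (R 4.3.3), 1 fit per line, for genes with a mean of at least 10, Benjamini-Hochberg adjusted over all genes tested. Every p given is from it. Each set of 4 comparisons within a line shares control libraries. edgeR 4.0.16 and DESeq2 1.42.0 were run on recovered reads as alternatives, and other normalizations, filters, fits and left-out libraries were also tried. Start sites and exons came from GENCODE vM21, and the share of genes with a site is over the 46402 that could be placed. The scripts were tested on simulated data. All 10 genes are named throughout, other genes of a list where they passed the study's thresholds, and the 3 genes of highest r as most alike, of which 1 is not reported here. The genes and lists were chosen with earlier results of these data known.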

Additional observations from a re-analysis of the deposited data

Results flagged for a closer look

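The change of a gene differed between a line and the CTCF line by the test of the difference itself (limma over all 38 libraries, adjusted p under 0.05) in 32 of 120 cases. Values are the log2 change in the named line minus that in the CTCF line, and line, clone and library batch cannot be told apart.

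For doxycycline alone the CTCFL line differed for Smc1a by 0.44, Smc3 by 0.59, Stag1 by 0.75, Stag2 by 0.87, Nipbl by 0.57, Pds5a by 0.42 and Pds5b by 0.70. For ID versus U it differed for Smc1a by 0.39 and Pds5b by 0.60, and for ID versus I for Pds5b by 0.78.

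The LCL line differed in ID versus U for Stag1 by 1.32, Stag2 by 1.26 and Pds5b by 1.14. In ID versus I it differed for Stag1 by 1.32, Stag2 by 0.98 and Pds5b by 0.94.

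The CLC line differed for auxin alone for Rad21 by -0.52 and Wapl by -0.53. In ID versus U it differed for Stag1 by 1.26, Stag2 by 0.86, Nipbl by 0.77, Mau2 by 0.41 and Pds5b by 1.37. In ID versus I it differed for Rad21 by 0.59, Smc1a by 0.30, Smc3 by 0.47, Stag1 by 1.55, Stag2 by 0.76, Nipbl by 1.07, Wapl by 0.53, Pds5a by 0.77 and Pds5b by 1.56.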

How the results depend on the processing

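Of the 106 changes past the test, 106 kept their direction and call by DESeq2, 103 by edgeR and 104 with TMM factors, and 69 kept them without any 1 library. Of the 32 differences between lines, 21 did. Leaving out a library can leave a group with 1, which was then assumed to vary like the other groups.

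Counts of the 10 genes past an adjusted p of 0.05 moved as follows. Without the filter on low values they were 5 for CTCF D versus U, 3 for LCL D versus U, 3 for LCL ID versus I and 3 for CLC ID versus U. With the replicate number as a block they were 5 for CTCF D versus U, 3 for CLC ID versus U and 1 for CLC ID versus I. Nothing in the labels says whether the numbers pair the samples. With group means removed, libraries of 1 line with the same number correlated at -0.55 (CTCF U and I, replicate 1) to 0.33 (CTCF U and D, replicate 2). What a call lost under the block means was therefore not tested. With 2 groups alone in the fit the CLC counts were 8 for D versus U, 0 for ID versus I and, past the study's thresholds, 0 for I versus U, as also by edgeR and DESeq2. With all 4 lines in 1 fit they were 3 for LCL D versus U, 2 for LCL ID versus I, 2 for CLC D versus U and 4 for CLC ID versus I. Of the differences between lines, LCL D versus U gave 1 at a minimum mean of 50 and CLC I versus U 1 with TMM factors.

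The removal of trends and a crossed pairing of replicate numbers were chosen after seeing the data, and the crossed block gave 6 for CLC ID versus I. Of the 106 changes, 80, 82 and 72 kept their call with length, GC or both removed. With length removed the count was 4 for CTCF D versus U and 10 for LCL ID versus U. With GC removed it was 4 for CTCF D versus U, 5 for CTCF I versus U, 5 for CLC I versus U and 4 for CLC ID versus I. With both removed these were 3, 4, 5 and 4, and 10 for LCL ID versus U. Past the study's thresholds, CTCF ID versus U, CTCF ID versus I, LCL ID versus U and CLC I versus U gave 0 under each, and CTCFL ID versus U 0, 1 and 0. Differences between lines were 1, 1 and 2 for LCL D versus U and 2 under each for CTCFL ID versus I. With GC or both removed they were 1 for CTCFL I versus U and 5 for LCL ID versus U, and 3 for LCL I versus U with both.

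Directions turned in 24 cases. With length removed Pds5a was at 0.070 in CTCF ID versus U, 0.17 in ID versus I, 0.011, 0.11 and 0.10 in CTCFL I versus U, ID versus U and ID versus I, 0.27 in LCL ID versus U and -0.11 in the CLC difference for ID versus I. With both removed Pds5a was at 0.067, 0.033, 0.31 and 0.25 in CTCF I versus U, D versus U, ID versus U and ID versus I, 0.16, 0.39 and 0.23 in CTCFL I versus U, ID versus U and ID versus I, 0.037 and 0.25 in LCL I versus U and ID versus U, and -0.18 in that CLC difference. Stag1 was then at 0.14 and 0.060 in CTCF I versus U and D versus U and 0.020 and 0.074 in LCL and CLC I versus U. Pds5b was at 0.0012 in CTCF D versus U, 0.27 in CTCFL ID versus U and 0.0077 in CLC I versus U. The cause was not tested.

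Without 1 library the counts ran from 0 to 9 for CTCF D versus U, 5 to 10 for LCL I versus U, 3 to 9 for LCL D versus U, 1 to 6 for LCL ID versus I, 0 to 5 for CLC ID versus U and 0 to 8 for CLC ID versus I. Past the study's thresholds they ran from 0 to 1 for LCL I versus U, LCL ID versus U and CLC ID versus I and from 0 to 3 for CLC I versus U. Differences between lines ran from 0 to 1 for CTCFL I versus U, LCL I versus U and LCL D versus U, 0 to 2 for CTCFL ID versus U, 1 to 5 for CLC I versus U and 3 to 5 for CLC ID versus U.

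At 50% overlap 1 gene had a FLAG site in CTCF D and 0 in CLC D, and at a -log10 q of at least 5, 1 in CTCF ID with RNase. With either replicate alone RAD21 sites ran from 0 to 2 in CTCF D, 0 to 6 in CLC D and 0 to 4 in LCL D. FLAG sites ran from 3 to 5 in CTCF ID RNase, 2 to 4 and 1 to 3 in CTCFL ID RNase and mock, 0 to 3 and 3 to 5 in CLL D and ID, and 1 to 2 in LLC ID. Peak number limits what these counts can show.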
